A study of Mus musculus with 6 samples.

Results

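The 9 genes described here are CXC chemokines and related receptors: the chemokines Cxcl1, Cxcl2, Cxcl3, Cxcl9, Cxcl10, Cxcl14 and Cxcl16, and the receptors Cxcr4 and Cx3cr1. They were found by symbol in the authors' deposited gene table, where all 9 were present among 19386 genes, and all 9 were among the 12082 genes that carry an adjusted p-value there. RNA was sequenced from bone marrow-derived macrophages, cells grown from marrow in medium with 10% fetal calf serum and 10% L929 cell supernatant, a source of macrophage growth factor, and harvested on day 11. All donors were wild-type C57BL/6 mice. In 1 group of 3 libraries the mice had been exposed to cigarette smoke, and in the other group of 3 to room air. Day 11 counts from the start of culture, and the protocol splits the marrow of each mouse into a part harvested at once and a part grown into macrophages. The cells themselves received no further treatment that the labels name, and the dose and length of the smoke exposure are not given in the sources used here.

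Chemokines are small secreted proteins that direct the movement of leukocytes through receptors coupled to G proteins. Cxcl1, Cxcl2 and Cxcl3 attract neutrophils through Cxcr2, and macrophages make them in large amounts when NF-kappaB is activated, for example by bacterial products. Cxcl9 and Cxcl10 attract activated T cells and natural killer cells through Cxcr3 and are induced by interferons. Cxcl14 is a chemokine of epithelia and other tissues, Cxcl16 is made as a membrane protein that also binds oxidized lipoproteins, Cxcr4 is the receptor of Cxcl12 and holds cells in the marrow, and Cx3cr1 is the receptor of fractalkine on monocytes and resident macrophages.

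On GRCm38 with GENCODE M21, the neutrophil attractants lie on the plus strand of chromosome 5, Cxcl1 and Cxcl2 close together and Cxcl3 further off: Cxcl3 (ENSMUSG00000029379.10) from 90786103 to 90789600, Cxcl1 (ENSMUSG00000029380.11) from 90891241 to 90893115 and Cxcl2 (ENSMUSG00000058427.10) from 90903871 to 90905938. The interferon-induced pair lies on the minus strand of the same chromosome, Cxcl9 (ENSMUSG00000029417.9) from 92321347 to 92328079 and Cxcl10 (ENSMUSG00000034855.13) from 92346638 to 92348889. The other genes are single and on minus strands: Cxcl14 (ENSMUSG00000021508.11) on chromosome 13 from 56288643 to 56296551, Cxcl16 (ENSMUSG00000018920.11) on chromosome 11 from 70453983 to 70459984, Cxcr4 (ENSMUSG00000045382.6) on chromosome 1 from 128588199 to 128592293 and Cx3cr1 (ENSMUSG00000052336.7) on chromosome 9 from 119901616 to 120069879.

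The upstream sequences of the 5 inducible ligands are shown because these genes had the highest estimated fold changes and are the ones known as NF-kappaB or interferon targets. They are RefSeq sequences on GRCm38.p6, written 5′ to 3′ on the strand of the gene and ending at the last base before the RefSeq start. RefSeq upstream sequences were found for 8 of the 9 genes. Capitals mark matches, on either strand, to the kappaB-type letters GGNNTTNCC, which include the stricter GGAATTTCC, or to the interferon-response-type letters GAAANNGAA, and the first run of capitals in Cxcl9 joins 2 overlapping matches. Cxcl1 lies on the plus strand (chr5:90891125-90891244), as do Cxcl2 (chr5:90903779-90903898) and Cxcl3 (chr5:90785981-90786100), while Cxcl9 (chr5:92328080-92328229) and Cxcl10 (chr5:92348890-92349109) lie on the minus strand.
Cxcl1: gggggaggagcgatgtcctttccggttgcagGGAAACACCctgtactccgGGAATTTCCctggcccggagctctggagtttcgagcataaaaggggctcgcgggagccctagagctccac
Cxcl2: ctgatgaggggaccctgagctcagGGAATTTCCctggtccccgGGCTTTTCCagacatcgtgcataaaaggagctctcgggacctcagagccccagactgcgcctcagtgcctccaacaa
Cxcl3: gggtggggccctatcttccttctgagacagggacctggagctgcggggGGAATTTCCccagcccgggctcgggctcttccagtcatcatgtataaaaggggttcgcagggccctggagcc
Cxcl9: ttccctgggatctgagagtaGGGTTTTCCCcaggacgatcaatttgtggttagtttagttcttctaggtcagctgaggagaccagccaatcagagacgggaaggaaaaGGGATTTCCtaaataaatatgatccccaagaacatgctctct
Cxcl10: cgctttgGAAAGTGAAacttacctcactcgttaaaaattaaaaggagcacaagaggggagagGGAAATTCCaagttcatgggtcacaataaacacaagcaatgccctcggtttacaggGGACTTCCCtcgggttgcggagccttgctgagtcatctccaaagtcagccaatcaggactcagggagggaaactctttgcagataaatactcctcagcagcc

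The letters GGAATTTCC, searched on both strands in the 250 bases before the start, occurred in 94 of 32851 RefSeq upstream sequences (0.286%), and Cxcl1, Cxcl2, Cxcl3 and Cxcl10 were among them. In Cxcl1, Cxcl2 and Cxcl3 the match lay on the strand of the gene and began 70, 96 and 72 bases before the RefSeq start. For Cxcl2 that start lies inside the GENCODE gene, which begins at 90903871, so the last bases printed for it are within that gene. In Cxcl10 it lay on the opposite strand and reached from 158 to 150 bases before the start. The looser GGNNTTNCC occurred in 13.5% of all sequences and in 5 of the 8 genes, adding Cxcl9 to those 4. The letters GAAANNGAA occurred in 7.13% of all sequences and in Cxcl9, Cxcl10 and Cxcl14, beginning 175, 213 and 172 bases before the start, which for Cxcl9 is upstream of the bases printed. The letters were chosen after these sequences had been seen, and a match describes the sequence and not the binding of a factor.

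Between cigarette smoke and room air, 0 of the 9 genes passed the DESeq2 adjusted p threshold of 0.05 that 7.69% of all tested genes passed in the authors' deposited table. Estimates are log2 fold changes of smoke over room air, and 8 of the 9 were above 0, with a median of 1.38, against 49.7% of all tested genes above 0 and a median of -0.003. The name of the deposited column marks a shrunken (maximum a posteriori) estimate, and the folds and intervals given here rest on it. The plain ratio of the group means was 3.09 for Cxcl1, where the estimate is 2.89-fold, 3.40 for Cxcl9 (3.21-fold) and 1.84 for Cxcl14 (1.69-fold). Cxcl2, Cxcl9 and Cxcl10 had an unadjusted p under 0.05 with the higher mean after smoke, a mark that 12.0% of all tested genes reached in that direction. The genes were not chosen at random, so these shares are descriptions and not a test of the family. In RNA from a whole culture, more cells that express a gene and more RNA per cell cannot be told apart.

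Among the neutrophil attractants Cxcl2 was the most abundant. Levels are group means of read counts divided by a size factor per library, called normalized counts here. In the authors' deposited table Cxcl2 averaged 49.9 normalized counts in room air and 129 after cigarette smoke. Its log2 estimate in the authors' deposited table was 1.38 (SE 0.60), a 2.59-fold estimate with a 95% interval from 1.15-fold to 5.83-fold, and its adjusted p was 0.135 (unadjusted 0.0211). The interval of Cxcl2 thus lay above 1-fold, while the p adjusted over all tested genes missed the threshold.

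Cxcl1 was low in both groups, with 3.44 normalized counts in room air and 10.6 after smoke in the authors' deposited table. The authors' deposited table put Cxcl1 at a log2 estimate of 1.53 (SE 0.90; adjusted p 0.305). Cxcl3 was close to 0 in both groups, at 0.567 and 1.55 normalized counts, and the authors' deposited table put it at a log2 estimate of 1.39 (SE 1.10; adjusted p 0.486). The 3 neutrophil attractants thus had log2 estimates that differed by less than any of their standard errors. For Cxcl3 the 95% interval ran from 0.587-fold to 11.8-fold, so neither a rise nor a fall could be read from it.

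The interferon-induced ligands Cxcl9 and Cxcl10 had the highest estimates of the 9 genes, above that of Cxcl1 by less than any of their standard errors. Cxcl11, an inducible ligand outside the 9, had a lower log2 estimate of 1.17 (SE 0.73). The authors' deposited table gave Cxcl10 76.3 normalized counts in room air and 242 after smoke, and a log2 estimate of 1.66 (SE 0.79; adjusted p 0.178, unadjusted 0.0345). Cxcl9 had 5.14 and 17.5 normalized counts, and its log2 estimate in the authors' deposited table was 1.68 (SE 0.80; adjusted p 0.182, unadjusted 0.036). The 95% intervals ran from 1.09-fold to 9.21-fold for Cxcl10 and from 1.08-fold to 9.55-fold for Cxcl9. The sizes of these estimates were thus close, while Cxcl10 was the more abundant transcript in both groups.

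The authors' deposited table gave Cxcl14 10.3 normalized counts in room air, 19.0 after smoke and a log2 estimate of 0.75 (SE 0.55; adjusted p 0.442). Cxcl16, abundant in both groups, averaged 976 and 980.4 normalized counts, and its log2 estimate in the authors' deposited table was 0.01 (SE 0.18; adjusted p 0.982). Its 95% interval was the narrowest of the 9, from 0.789-fold to 1.29-fold, so a change in Cxcl16 as large as the estimate of Cxcl2 lay outside it.

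The authors' deposited table gave Cxcr4 1013 normalized counts in room air, 938 after smoke and a log2 estimate of -0.11 (SE 0.36; adjusted p 0.905). It was the single gene of the 9 with an estimate below 0, and its 95% interval ran from 0.565-fold to 1.52-fold. For Cx3cr1 the authors' deposited table gave 192 and 297 normalized counts and a log2 estimate of 0.63 (SE 0.50; adjusted p 0.495).

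**Figure D1:**
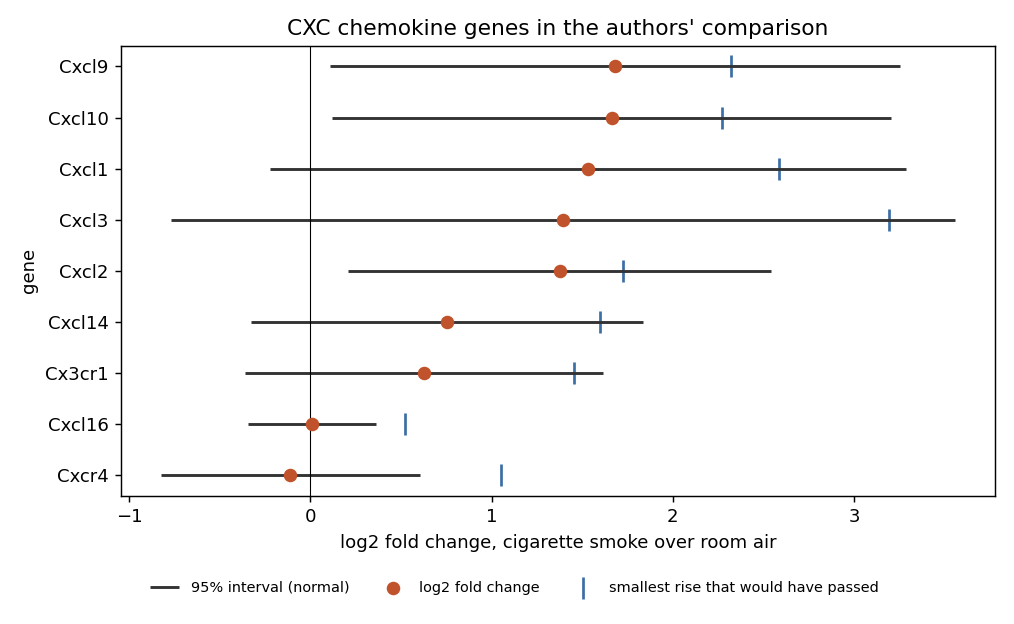
Log2 fold change of each gene, cigarette smoke over room air (horizontal axis), in the authors' deposited table, as a point with its 95% interval from the standard error. The blue tick is the smallest rise that would have reached the highest p-value called in that table; every point lies to the left of its tick, and the interval of Cxcl16 is the shortest.

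The standard errors, which come from the authors' fit over 24 libraries, set what could be detected. The highest unadjusted p among called genes in the authors' deposited table was 0.00384. At that p a rise of at least 3.3-fold was needed for Cxcl2, 4.84-fold for Cxcl10, 4.99-fold for Cxcl9, 6.02-fold for Cxcl1 and 9.13-fold for Cxcl3, and 1.43-fold was enough for Cxcl16. The libraries of each group cannot be looked at singly, because the expression values are group means, so the part of 1 library in any of these means was not tested.

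Levels were compared between genes per kilobase of exon. In room air Cxcr4 was the most abundant at 560.4 normalized counts per kilobase, followed by Cxcl16 at 323, Cx3cr1 at 42.7, Cxcl10 at 33.9 and Cxcl2 at 24.1. Lower still in room air were Cxcl14 at 5.66 normalized counts per kilobase, Cxcl1 at 1.84, Cxcl9 at 1.70 and Cxcl3 at 0.162. After smoke Cxcr4 and Cxcl16 again stood first, at 519 and 325 normalized counts per kilobase, and Cxcl10, at 107, stood above Cx3cr1, at 65.9, and Cxcl2, at 62.4. Cxcl9 and Cxcl1 also stood in the other order after smoke, at 5.79 and 5.67 normalized counts per kilobase. No spread over libraries is available for these levels, so whether neighbours in the order differ was not tested.

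The macrophages of both groups stood low in the inducible ligands beside the full set of libraries in the authors' fit. That fit held 24 libraries, and the other 18, whose conditions are not described in the sources used here, had no separate column. The 24-library mean of Cxcl10 in the authors' deposited table was 11801 normalized counts, 155 times its room air mean and 48.8 times its smoke mean. For Cxcl2 the 24-library mean was 5587 normalized counts, 112 times the room air mean and 43.3 times the smoke mean. Ratios of this size were rare in the table: 0.365% of tested genes had a ratio of the 24-library mean to the room air mean at least as high as that of Cxcl10, and 0.481% at least as high as that of Cxcl2. Other inducible genes of the pathway lists were among them, so the ratios are not particular to these ligands: Socs3 stood at 273 times its room air mean, and Ccl22, Ccl17, Cxcl11 and Ifnb1, all under 2 normalized counts in room air, had ratios above that of Cxcl10.

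Cxcl1, Cxcl9 and Cxcl3 followed the same pattern, with 24-library means of 1201, 999 and 635 normalized counts in the authors' deposited table against at most 17.5 in either group. Because the filter on low means used all 24 libraries, Cxcl3 was tested although both of its group means were under 2 normalized counts. Cxcl14 and Cxcl16 had 24-library means of 126 and 2614 normalized counts, 12.2 and 2.68 times their room air means in the authors' deposited table. Cxcr4 went the other way: its 24-library mean was 468 normalized counts, 0.462 of its room air mean, and 94.5% of tested genes had a ratio at least as high. The 24-library mean of Cx3cr1 was 176, 0.915 of its room air mean. That ratio is near the median of 1.08 over tested genes, and 62.3% had a ratio at least as high. From the 3 means, the other 18 libraries averaged 15682 normalized counts for Cxcl10, 7419 for Cxcl2 and 299 for Cxcr4.

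**Figure D2:**
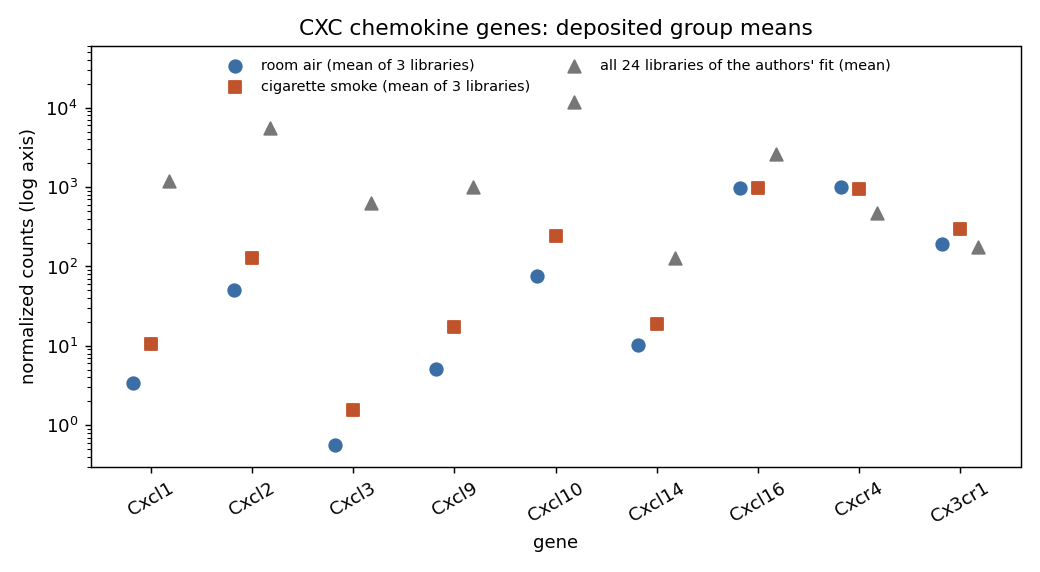
Mean normalized counts (log axis) of each gene in room air, after cigarette smoke and over all 24 libraries of the authors' fit; each point is a deposited mean with no spread. Grey triangles stand far above both groups for Cxcl1, Cxcl2, Cxcl3, Cxcl9 and Cxcl10 and below both for Cxcr4 and Cx3cr1.

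Reads of some of these genes cannot be assigned with certainty. Cxcl2 and Cxcl3 are close copies, and 5.84% of the distinct 50-base stretches in Cxcl2 transcripts also occur in Cxcl3, while none of those of Cxcl1 occurs in another gene. On the opposite strand, exons of Art3 overlap 133 bases of Cxcl10, those of Zmynd15 552 bases of Cxcl16 and those of Gm33858 78 bases of Cx3cr1. The libraries were made with a directional kit, but whether the counting used the strand is not given in the sources used here. No exon of another gene overlapped any of the 9 genes on the same strand.

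Splicing of the 9 genes was measured per library for 10 JuncBASE events, in Cxcr4, Cxcl2 and Cxcl16. Cigarette smoke replicate 1 stood apart, with no value in 4169 of all 10376 events, against 1 to 398 in each of the other libraries, so differences in log2 odds are also given without it. None of the 10 passed an adjusted p of 0.05 in limma, where 0.0% of all events passed, although 1125 of all events, and 0 of the 10, had an unadjusted p under 0.05. None of the 10376 had a corrected p under 0.05 in the authors' deposited table either. Positions below are on GRCm38 and were placed by GENCODE M21, since the authors' merged annotation joins Cxcl1, Cxcl2 and Cxcl3 into a single locus.

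Cxcr4 mainly used a pair of annotated splice donors at the end of its first exon, both joined to the acceptor of the second exon (chromosome 1, minus strand, intron from 128589902 to 128592188 or to 128592194). The donors lie 6 bases apart within the coding sequence, so the choice adds or drops 2 codons near the amino terminus of the receptor. By junction reads the longer first exon made up 85.2% in room air replicate 1, 85.3% in replicate 2 and 82.05% in replicate 3. After smoke it made up 93.5% in replicate 1, 80.85% in replicate 2 and 83.5% in replicate 3. Smoke replicate 1 was the highest of the 6 libraries and smoke replicate 2 the lowest, so the groups overlapped. Room air averaged 84.2% ± 1.85 (SD, n = 3) and smoke 85.9% ± 6.67 (SD, n = 3), a difference (smoke minus room air) of 0.30 in log2 odds (SE 0.58, limma adjusted p 0.818). Without cigarette smoke replicate 1 the sign turned, to -0.20. The shorter first exon made up 15.3% ± 2.42 (SD, n = 3) in room air and 12.9% ± 7.66 (SD, n = 3) after smoke by the same reads (limma adjusted p 0.749), a difference of -0.47 in log2 odds that turned to 0.19 without cigarette smoke replicate 1. The remaining 2 Cxcr4 events describe the same donors with exon reads added, and had limma adjusted p-values of 0.666 and 0.784. Without cigarette smoke replicate 1 their differences turned from 0.64 to -0.05 for the longer first exon and from -0.41 to 0.25 for the shorter.

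Intron 2 of Cxcl2 (chromosome 5, plus strand, 90904240 to 90904356) was retained at 9.09% in room air replicate 1, at 8.33% in replicate 2 and at 6.67% in replicate 3. After smoke it was retained at 6.25% in replicate 2 and at 1.3% in replicate 3. Smoke replicate 1 had no value. Both smoke values lay below all 3 room air values, replicate 2 only just. Room air averaged 8.03% ± 1.24 (SD, n = 3) and smoke 3.78% ± 3.5 (SD, n = 2), a difference of -1.20 in log2 odds (SE 0.70, limma adjusted p 0.534). The size of this difference rested on single libraries: it was -2.06 without smoke replicate 2 and -0.33 without smoke replicate 3, each time with 1 smoke library left, whose spread is assumed to be that of the room air libraries.

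Cxcl16 spliced its first intron (chromosome 11, minus strand, 70459168 to 70459377) to the annotated acceptor at an inclusion level of 97.6% ± 1.18 (SD, n = 3) in room air and 97.2% ± 2.54 (SD, n = 3) after smoke, against an unannotated acceptor further into the second exon (limma adjusted p 0.948). The room air values were 97.6%, 98.8% and 96.4%, and the smoke values 95%, 100% and 96.7%, each in the order of the replicate numbers. The smoke libraries included both the lowest and the highest value, so the groups overlapped. Without cigarette smoke replicate 1 the difference was 0.66 in log2 odds, against 0.13 with it (limma adjusted p 0.741 without it). The difference in log2 odds is above 0 although the smoke mean is the lower in percent, and with a pseudocount of 0.1 in place of 1 percentage point it was 0.92, so no direction is read from it.

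The other 4 Cxcl16 events were unannotated introns inside the last exon, in the 3′ untranslated part of the gene, between 70454667 and 70455066. In another annotated transcript the whole stretch lies within an intron, from 70454558 to 70455158. They were retained, that is left unspliced, at mean levels between 83.4% and 98.2% in room air and between 87.1% and 98.04% after smoke. Their limma adjusted p-values ran from 0.666 to 0.919. Without cigarette smoke replicate 1 the difference in log2 odds turned from 0.77 to -0.55 for the intron that begins at 70454787 and from 0.26 to -0.22 for the one at 70454947, while it was -0.35 and -0.38 for the one at 70454667 and 0.51 and 0.14 for the one at 70454827. For the introns at 70454787 and 70454947 the smoke mean in percent was the lower with all libraries, against the sign of the log2 odds, so no direction is read from these either.

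**Figure D3:**
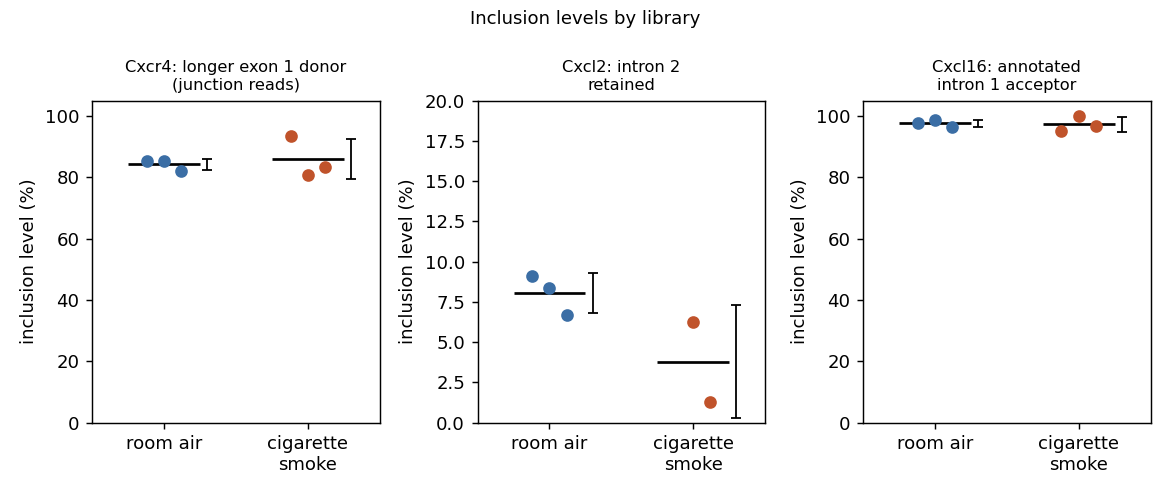
Inclusion level in percent (vertical axis) of 3 events, with a point per library, a line at the group mean and a bar of 1 SD beside it; the scale of the Cxcl2 plot ends at 20%. Smoke and room air values overlap for Cxcr4 and Cxcl16, and Cxcl2 has 2 smoke values because 1 library had none.

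Retained introns were also compared by rMATS in the authors' deposited table, which holds 4 introns of these genes, in Cxcl2, Cxcl10 and Cxcl16. Of the 4, 1 passed a false discovery rate of 0.05, where 14.5% of all 3887 introns passed. It was intron 3 of Cxcl2, the last intron of its main transcript (chromosome 5, plus strand, 90904441 to 90905188), for which the authors' deposited table gives a false discovery rate of 0.00102. Its level was 4.7 percentage points higher in sample set 1 than in sample set 2, and the table does not say which group each set is. Of the 3887 introns, 1638 had an absolute difference at least as large, and the median among those that passed was 5.5 points. Another annotated Cxcl2 transcript keeps this stretch as exon, so the level also counts that transcript. The intron of Cxcl10 (chromosome 5, 92347386 to 92347804) is given a difference of -0.2 points by the authors' deposited table, at a false discovery rate of 1. The Cxcl16 introns at 70454558 to 70455158, the one that spans those 4 events, and 70458828 to 70459028 had differences of -3.2 and 0.3 points and false discovery rates of 1 and 0.405 in the authors' deposited table. Of the 4 introns, 0 passed when a difference of at least 10 percentage points was required as well.

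Other genes of the chemokine pathway came from 8 lists. A trend of the fold changes in transcript GC content and length was fitted over all genes, and each call is also given with that trend removed. Of 10 other CXC, CX3C and XC chemokines, 6 were tested and 0 passed the DESeq2 threshold, or an unadjusted p of 0.05, with a median log2 fold change of -0.51 in the authors' deposited table. The highest per kilobase was Pf4, platelet factor 4, with 37.9 normalized counts in room air and 43.5 after smoke. Of 12 other receptors and ligands of receptors, 3 were tested and Mif, a cytokine that binds Cxcr2, Cxcr4 and Cd74, rose. The authors' deposited table put Mif at 145 and 301 normalized counts, with a log2 estimate of 1.07 (SE 0.23; adjusted p 0.000585). Without the trend Mif stood at 0.53 and no longer passed (adjusted p 0.309). Cxcr2, the receptor of the neutrophil attractants, was listed at 0 in room air and 0.313 normalized counts after smoke. Among 7 tested genes of a list on shedding proteases and the handling of Cxcl16, Rhbdf2, a partner of Adam17, rose with a log2 estimate in the authors' deposited table of 0.40 (SE 0.14, adjusted p 0.0456). It did not pass without the trend, at 0.22 (adjusted p 0.573).

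Of 26 tested genes of chemokine receptor signalling, 4 rose and 0 fell, where 4.15% of all tested genes rose and 3.53% fell, and without the trend 0 of the 26 passed, where 1.27% of all genes did. The 4 were the G protein subunits Gnai2 and Gnb2, the GTPase Rac2 and the Src-family kinase Fgr, with log2 estimates in the authors' deposited table of 0.30, 0.44, 0.36 and 1.09 (adjusted p 0.0412, 0.0118, 0.0439 and 0.0172). Without the trend they stood at 0.05, 0.09, 0.26 and 1.01. On the NF-kappaB route, 2 of 18 tested genes rose, both inhibitors, which the authors' deposited table put at log2 estimates of 0.56 for Nfkbia (SE 0.15, adjusted p 0.00967) and 0.44 for Nfkbib (SE 0.14, adjusted p 0.0361). Without the trend 0 of the 18 passed, with Nfkbia at 0.33 and Nfkbib at 0.13. On the interferon route, 2 of 18 rose and 1 fell. The feedback inhibitors Socs3 and Socs1 had log2 estimates in the authors' deposited table of 2.06 (SE 0.55, adjusted p 0.00734) and 1.67 (SE 0.57, adjusted p 0.0457), and Irf9, a subunit of the interferon-activated factor ISGF3, had -0.30 (SE 0.09, adjusted p 0.02). Of these 18, 0 passed without the trend, with Socs3 at 1.79, Socs1 at 1.42 and Irf9 at -0.30. Among 11 factors of chemokine mRNA decay, Rc3h1 and Rc3h2, which encode the RNA-binding roquins, fell, with log2 estimates in the authors' deposited table of -0.52 and -0.67 (adjusted p 0.0091 and 8.31e-05). Without the trend neither passed, at -0.12 and -0.25 (adjusted p 0.862 and 0.466), and the single call of that list was Elavl1, an RNA-stabilizing factor, at 0.43 (adjusted p 0.0244).

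CC chemokines and their receptors had estimates of similar size with smaller standard errors. Of 16 tested genes, 6 rose and 0 fell, with a median log2 fold change of 1.45 in the authors' deposited table and a median standard error of 0.45, against 0.60 for the 9 genes described here. The monocyte attractants Ccl2, Ccl7 and Ccl12 had log2 estimates in the authors' deposited table of 1.68, 1.64 and 1.57, with standard errors of 0.36, 0.33 and 0.34 (adjusted p 0.000562, 0.000189 and 0.000618). Ccl9 and Ccl22 had log2 estimates of 0.36 and 2.95 in the authors' deposited table (adjusted p 0.0133 and 0.0274). The receptor Ccr1 had 15.8 normalized counts in room air and 56.8 after smoke in the authors' deposited table (adjusted p 0.0103). Whether the CC and CXC genes differ in their response was not tested. Over all lists, 14 of the 19 genes past the threshold did not pass without the trend, at adjusted p-values from 0.0638 to 0.951. When p-values were adjusted over every gene that has one, Rhbdf2, Gnai2, Rac2, Nfkbib and Socs1 did not pass either, at 0.0720, 0.0648, 0.0693, 0.0571 and 0.0722. The 5 that still passed without the trend were Ccl2, Ccl7, Ccl9, Ccl12 and Ccr1. Ccl22 did not, at 2.82 (adjusted p 0.0991).

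**Figure D4:**
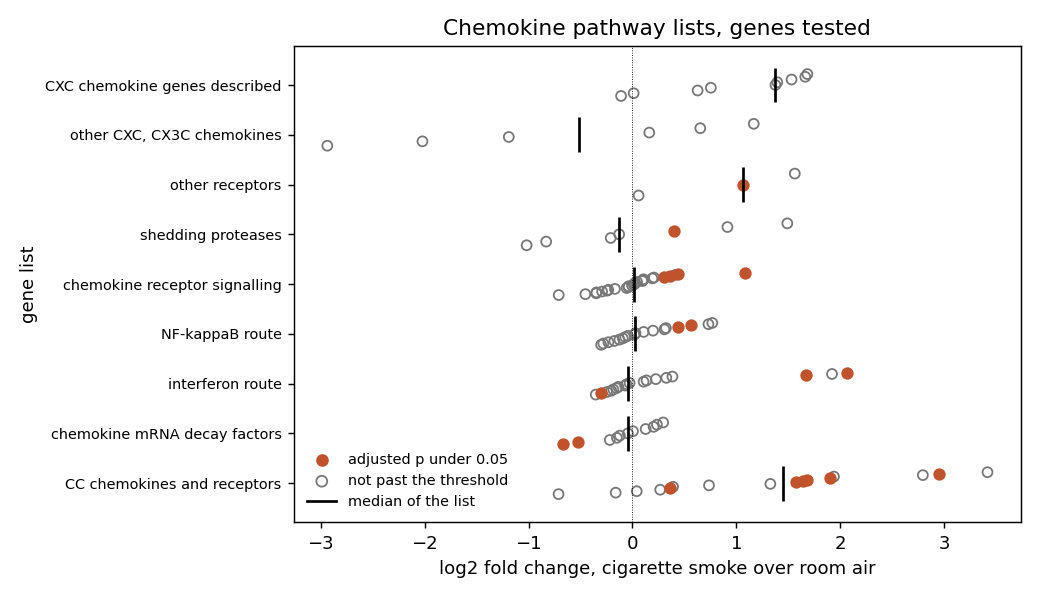
Log2 fold change, cigarette smoke over room air (horizontal axis), of each tested gene of the 9 genes described and of the 8 pathway lists; filled points had adjusted p-values under 0.05 in the table the authors deposited and black lines are list medians. No point of the CXC genes is filled, although their median of 1.38 lies close to the 1.45 of the CC list.

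Macrophage markers were abundant in both groups. The 10 macrophage genes summed to 57440 normalized counts in room air and 58340 after smoke, and 5 of them had estimates above 0. The authors' deposited table has 1 past the threshold, Spi1 (log2 estimate 0.41, SE 0.11, adjusted p 0.00813), and it no longer passed once the GC content and length trend was removed (adjusted p 0.856). The lowest estimate was that of the mannose receptor gene Mrc1, at 3601 normalized counts in room air and 2196 after smoke (log2 estimate -0.71, SE 0.27, adjusted p 0.0836) by the authors' deposited table. Of the marker genes of other cell types, many have no row in the table, so no level is given for them. Rows were found for 4 of 10 neutrophil, 4 of 6 dendritic, 4 of 8 B cell, 1 of 8 T and natural killer cell, 1 of 7 erythroid and 3 of 6 megakaryocyte and platelet genes. All of these were under 10 normalized counts in both groups except Csf3r of the neutrophil list, at 301 and 317, and Pf4 of the platelet list, at 37.9 and 43.5. Stromal genes summed to 366 normalized counts in room air and 283 after smoke, of which Kitl held 319 and 272, and Col1a2 had 22.5 and 3.35. None of the 7 tested stromal genes passed the threshold, and the part of other cells in the chemokine estimates was not tested.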

How the data were processed

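Total RNA was sequenced with a directional kit on an Illumina instrument, per the labels' protocols. The authors name STAR, DESeq2, SAMtools 1.9, bedtools 2.27.1 and mm10, per the submitters' processing notes, which give no roles here. The counting program is not given in the sources used here.

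The authors deposited 1 gene table with signal columns that hold means of size-factor-normalized counts, per the file headers. The authors' comparison in that table holds log2 fold changes, named as shrunken estimates, with standard errors, a Wald score and p-values before and after adjustment. Its overall means, standard errors and low-count filter rest on 24 libraries, 18 of them not analysed here. Depth per library is unknown. The authors deposited JuncBASE inclusion levels in percent per library, and an rMATS table whose level difference is deposited as a score. A further 6 per-sample columns of the rMATS file were not used, because the groups of its sets are not stated.

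From these, 95% intervals (normal, from the standard errors), levels per kilobase of exon (GENCODE M21) and the mean of the other 18 libraries were computed. Inclusion p was tested as log2((p + 1)/(100 - p + 1)) with limma 3.58.1 in R 4.3.3 over all events, with Benjamini-Hochberg adjustment. A trend in transcript GC content and log2 length (natural splines with 4 degrees of freedom, statsmodels 0.14.6, patsy 1.0.2) was removed from the fold changes of 12071 genes as an alternative. Stretches of 50 bases were compared between GENCODE transcripts. Replicate groups came from the sample titles. The labels do not say which animal each library came from, so splicing p-values measure only the spread between these samples, which may be technical. Expression standard errors and p-values come from the authors' fit over 24 libraries. Their spread thus also draws on 18 libraries whose conditions are not described, and it too may be technical.

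The genes, lists and tests were chosen with earlier results of these data known. Named are the 9 genes, list genes past the threshold, and the highest gene per kilobase of a list without one. Cxcr2, Csf3r, Kitl, Col1a2, Spi1, Mrc1, Ccl17, Cxcl11 and Ifnb1 were named after their values were seen. A rule for the nearest genes in pattern applied to members past the threshold, of which there were none.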

Additional observations from a re-analysis of the deposited data

How the results depend on the processing

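None of the 9 genes passed the threshold under an adjusted p of 0.01 or 0.1, when p-values were adjusted over every gene that has one or only over genes averaging 50 or more, or after removal of the GC content and length trend. That removal turned the sign of Cxcl16, to -0.06. A pseudocount of 10 on the group means lowered Cxcl1 to 0.62, Cxcl9 to 0.86 and Cxcl3 to 0.13 on the log2 scale, because their means lie near or under that pseudocount. The 19 pathway calls became 8 at an adjusted p of 0.01, 25 at 0.1, 14 over every gene with a p-value, 20 over genes averaging 50 or more and 6 without the trend, of which Elavl1 was a new one. Over all genes the calls, 7.69% of those tested, became 366 at 0.01, 1547 at 0.1 and 153 without the trend.

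No member event passed under any of these settings of the splicing test: pseudocounts of 0.1 and 5, events with values in all 6 libraries (which leaves out the Cxcl2 intron, so 9 of the 10 were run), a replicate block, and leaving out each library. The calls over all events, 0 in the test as reported, were 241 at a pseudocount of 0.1, 23 with complete events and 1064 without cigarette smoke replicate 3. The replicate block gave 0 calls. Same-numbered libraries correlated in their deviations from the group mean at 0.0177, -0.0404 and -0.0888, and differently numbered ones at -0.072 to 0.127. With 3 libraries a group, such values cannot decide whether the numbers pair libraries. A pseudocount of 5 turned the Cxcl16 acceptor to -0.03 in log2 odds. With each library left out, log2 odds ranged from -0.67 to 0.66 for that acceptor, from -0.20 to 0.61 and from -0.89 to 0.19 for the Cxcr4 donors by junction reads, from -0.05 to 1.05 and from -0.85 to 0.25 with exon reads, from -2.06 to -0.33 for the Cxcl2 intron (both ends with 1 smoke library left), and from -0.88 to 0.28, from -0.55 to 1.72, from -0.36 to 1.21 and from 0.14 to 0.94 for the introns in the last Cxcl16 exon. The Cxcl2 intron of rMATS passed at a false discovery rate of 0.01 and of 0.1, and a minimum of 10 percentage points left 0 calls. The order of levels per kilobase, with the longest transcript in place of all exons (an alternative chosen after seeing the data), kept all 9 places in both groups.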

Other observations

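The 4 unannotated introns in the last exon of Cxcl16 were 40, 120, 160 and 40 bases long, so all 4 lengths were multiples of 40. The stretch that holds them, 400 bases on chromosome 11 from 70454667 to 70455066, is 97.2% identical to itself at a shift of 40 bases over 360 compared bases, against a median of 25.8% over all shifts from 1 to 120. The part of this repeat in the placement of junction reads was not tested.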
